A study of Mus musculus with 10 samples.

Results

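The poly(A)-binding proteins and the cytoplasmic polyadenylation element-binding (CPEB) family were followed through 9 genes, 5 for poly(A)-binding proteins and 4 for CPEB proteins. Members were all probe sets of the array whose annotated gene was one of these 9, which gave 21 probe sets. The array measures 18193 genes in all through probe sets annotated to 1 gene. The brightest probe set of a gene, by its mean over the 10 samples, is called its main probe set, and the others are given beside it. The ending _a_at marks a probe set shared by several transcripts of 1 gene. A probe set is a group of short oligonucleotides read as 1 intensity. Only probe sets with a log2 intensity above 5 in at least 4 arrays were tested, and 18 of the 21 passed, with at least 1 for each of the 9 genes. The 9 main probe sets were read from a fit of 10590 tested genes.

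The oocytes were fully grown mouse oocytes at the germinal vesicle stage, the stage of prophase arrest before meiotic maturation. The 4 non-transgenic samples are numbered 1, 2, 7 and 8, and the 6 transgenic samples 4, 5, 6, 11, 12 and 13. The transgenic mice carry a transgene that produces RNA interference against basonuclin (Bnc1) in oocytes only. Each sample held total RNA of about 50 oocytes from 1 mouse and was read on 1 array. The promoter of the transgene, the number of transgenic lines, the strain and the age of the mice are not given in the sources used here. Whether any mouse gave more than 1 sample is not stated in the labels. If some did, the p-values measure in part the spread between samples of 1 mouse.

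A fully grown oocyte makes little new RNA and lives on stored mRNA, whose translation is set largely by the length of the poly(A) tail. CPEB1 binds a U-rich element in the 3′ untranslated region of stored mRNAs, keeps them silent with short tails, and after phosphorylation brings about tail extension when meiosis resumes. Poly(A)-binding proteins then cover the tail: PABPN1 acts in the nucleus during tail synthesis, PABPC1 and PABPC4 act in the cytoplasm in translation, and PABPC1L and PABPN1L are forms found mainly in oocytes and early embryos. PABPN1L is known to serve as an adaptor that brings the CCR4-NOT deadenylase to maternal mRNAs as they are cleared. The arrays measured the mRNA level of these genes, neither protein nor tail length.

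The promoters of Pabpn1l and Pabpn1 are shown because the oocyte form and the general nuclear form of this protein differed in their response, as described below. Both are RefSeq sequences of build GRCm38.p6, from the 250 bases before the start of the gene, written 5′ to 3′ in the direction of transcription. Capitals mark every match to 5 short motifs, searched on both strands. These were the E-box, with the letters CANNTG, and a homeobox-type motif, with the letters TAATTG. The others were the TATA box, spelled as TATAAA, the GC box, spelled as GGGCGG, and the CCAAT box, spelled as its name. No pair of matches in these windows shared a base. The Pabpn1l window is chr8:122622736-122622985 on the minus strand, and the Pabpn1 window is chr14:54893893-54894142 on the plus strand.
Pabpn1l: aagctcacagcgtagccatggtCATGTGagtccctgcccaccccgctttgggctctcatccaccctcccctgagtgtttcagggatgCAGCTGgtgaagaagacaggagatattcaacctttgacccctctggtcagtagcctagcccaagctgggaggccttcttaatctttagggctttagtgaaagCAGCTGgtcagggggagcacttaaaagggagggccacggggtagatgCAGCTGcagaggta
Pabpn1: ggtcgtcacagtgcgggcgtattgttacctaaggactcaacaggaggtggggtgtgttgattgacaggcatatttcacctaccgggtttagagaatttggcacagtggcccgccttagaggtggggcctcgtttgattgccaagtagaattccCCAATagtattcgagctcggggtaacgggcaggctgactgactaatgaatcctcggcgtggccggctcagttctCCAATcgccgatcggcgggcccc
The Pabpn1l window held 4 E-boxes and none of the other motifs. E-boxes are read by basic helix-loop-helix proteins. At least 1 E-box was in 66.2% of 32851 promoter windows of the same length, and at least 4 were in 3.84%. The count of 4 was taken from the Pabpn1l window itself, so the second share is no test of that window. The Pabpn1 window held 2 CCAAT boxes and none of the other motifs, and a CCAAT box was in 33.8% of windows. The motif TAATTG was in 7.17% of windows, the TATA box in 12.4% and the GC box in 32.7%. A match describes letters in the window and not a bound site. Of the 9 genes, 7 have an entry in the promoter table.

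The deposited values were even in scale, and the arrays carried the difference their labels name. Array medians ran from 17.5 to 20.1 in intensity. The values had been normalized between arrays before deposit, so near-equal medians say little about the arrays themselves. The targeted gene Bnc1 had a log2 mean of 11.57 ± 0.15 (SD) over the 4 non-transgenic samples. Over the 6 transgenic samples it was 3.85 ± 0.21 (SD), under the filter level and without overlap. All 15 oocyte markers on the array passed the filter, and the brightest of them, Nlrp5, Ooep and Oosp1, were at 14.83, 14.77 and 14.66 in non-transgenic oocytes and at 14.69, 14.69 and 14.65 in transgenic oocytes. Of them 1 rose (Kit, by 0.78) and 2 fell (Figla by -0.54 and Dppa3 by -0.21). Of 18 markers of granulosa and cumulus cells on the array, 8 passed the filter, 2 of these rose (Fshr by 1.24 and Cyp11a1 at least 2.95-fold) and 6 did not pass the test. The brightest were Nr5a2, Gja1 and Gata4, at 9.94, 8.01 and 7.98 in non-transgenic and 9.87, 8.56 and 7.61 in transgenic oocytes, and Amh, Foxl2, Inhba, Has2 and Star were below the filter. Their summed intensity was 1691 to 1928 in non-transgenic and 1652 to 2782 in transgenic samples. For stroma and vessels 6 of 13 passed the filter, 4 rose (Kdr by 1.19, Col4a2 by 1.13, Dcn by 1.11 and Postn by 0.81) and 1 fell (Acta2, by -0.50). Col4a1 was at 7.86 and 7.80, Col1a1, Col3a1, Pecam1 and Cdh5 were below the filter, and the sum was 538 to 637 against 721 to 989. For blood and immune cells 4 of 10 passed the filter, 1 rose (Laptm5, by 1.06) and 1 fell (Srgn, by -0.56). For Laptm5, 1 of 4 tested probe sets passed the test. H2-Aa was at 9.40 and 9.73, Ptprc and Cd68 were below the filter, and the sum was 3422 to 4286 against 2851 to 4502. Of the tested markers, 20% passed the test for oocytes and 25% for granulosa and cumulus cells. For stroma and vessels it was 83.3% and for blood and immune cells 50%, against 37.2% of all tested genes. The part of cells other than oocytes in the differences below was not tested. In RNA of whole oocytes, fewer oocytes that hold an mRNA and less of it in each oocyte cannot be told apart.

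In the fit of all genes, 37.2% of those tested passed (adjusted p below 0.05), with 18.9% higher and 18.3% lower in transgenic oocytes. Of the 9 member genes, 1 rose (Cpeb2), 2 fell (Pabpn1l and Cpeb3) and 6 did not pass, a share near that of all genes. For all tested genes 28% had groups that did not overlap, and the same 3 members had this. The median change was -0.07 for the 9 genes and -0.03 for all tested genes. Differences are in log2 units, transgenic minus non-transgenic, and adjusted p-values are from limma with Benjamini-Hochberg adjustment over all genes, or over all 18582 probe sets for the probe sets that are not the main ones. In the fit of probe sets 33.2% passed, 17% higher and 16.2% lower. Of the 18 member probe sets in it, 3 rose and 4 fell. The 3 that rose include 1434272_at of Cpeb2 and 1449931_at of Cpeb4, which reached the filter through the transgenic samples. Cpeb2 entered the fit only because it was above the filter in the transgenic samples, so it had to differ, and its call supports nothing about the family.

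**Figure D1:**
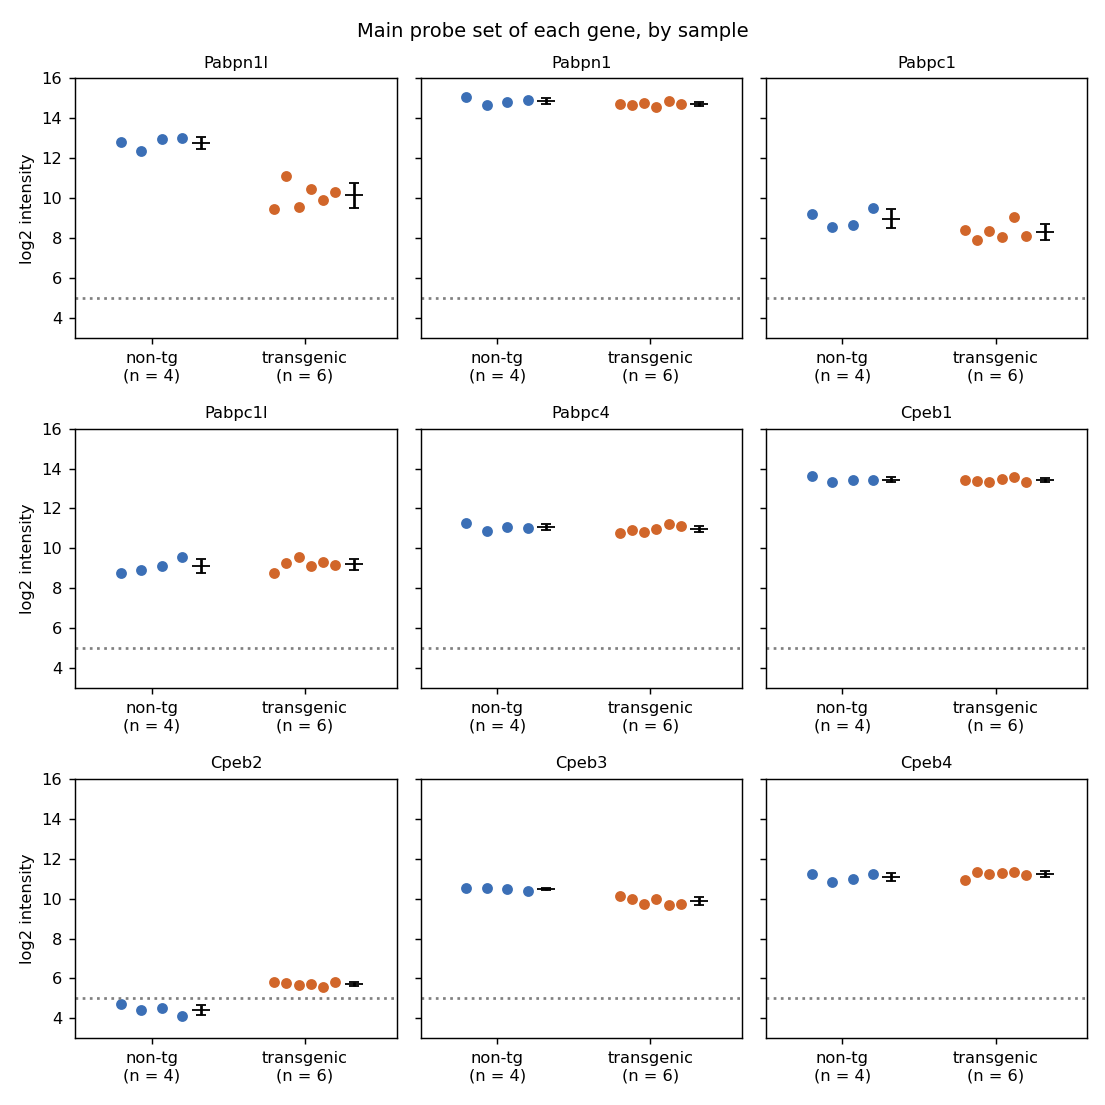
The vertical axes give the log2 intensity of the main probe set of each of the 9 genes, with 1 point for each sample, the mean and SD of each group in black, and a dotted line at the filter level of 5. The transgenic points of Pabpn1l (9.48 to 11.12) all lie below its non-transgenic points (12.34 to 13.02), whereas those of Cpeb1 overlap.

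The mRNA of the oocyte form PABPN1L was several times lower in every transgenic sample, and that of the general nuclear form PABPN1 differed little. Pabpn1l has 1 probe set, 1439991_a_at. In non-transgenic samples 1, 2, 7 and 8 it was at log2 12.80, 12.34, 12.95 and 13.02. In transgenic samples 4, 5, 6, 11, 12 and 13 it was at 9.48, 11.12, 9.58, 10.46, 9.89 and 10.33. All 6 transgenic samples were below all 4 non-transgenic samples, and sample 5 was the highest of them. As a share of the non-transgenic geometric mean, the transgenic samples kept 10.2% in sample 4, 10.9% in sample 6, 13.5% in sample 12, 18.4% in sample 13, 20.1% in sample 11 and 31.8% in sample 5. On the linear scale the mean intensity was 7131 ± 1375 (SD, n = 4) without the transgene and 1227 ± 566 (SD, n = 6) with it. The group means were 12.78 ± 0.30 and 10.15 ± 0.62, a difference of -2.63 (SE 0.29, 95% interval -3.27 to -1.99), or 6.20-fold lower (limma adjusted p = 4.35e-05). The two-sided exact permutation p was 0.00476, the smallest that 4 and 6 samples can give. Of all tested genes, 0.104% passed and fell at least as far. Pabpn1l stayed above the filter level in all 6 transgenic samples. Within samples 1 to 6 alone the difference was -2.51 (limma adjusted p = 0.0304) and within samples 7 to 13 alone it was -2.75 (limma adjusted p = 0.000472).

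Pabpn1, which stimulates poly(A) polymerase during tail synthesis in the nucleus, has 4 probe sets, of which 0 passed the threshold in limma, with 1 at an unadjusted p below 0.05. Its main probe set 1422849_a_at was at 15.07, 14.67, 14.82 and 14.90 in non-transgenic samples and between 14.57 and 14.86 in transgenic samples, with a median of 14.72. The groups overlapped, and the difference was -0.15 (95% interval -0.31 to 0.02, limma adjusted p = 0.153). The next, 1422848_a_at, differed by -0.21 (limma adjusted p = 0.116). The remaining probe sets, 1415728_at and 1422850_at, differed by 0.02 and -0.06 (limma adjusted p = 0.915 and 0.598). Without non-transgenic sample 2 the main probe set passed at -0.21 (limma adjusted p = 0.0457) and 1422848_a_at at -0.28 (limma adjusted p = 0.0443).

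Whether Pabpn1l and Pabpn1 changed by different amounts was tested on the difference of their log2 values within each array. This difference shifted by -2.48 between the groups without overlap (exact permutation p = 0.00476, adjusted over the 6 pairs of genes planned 0.0143, and over the 5 pairs without Cpeb2 0.0238). The shift was between -2.69 and -2.35 when any 1 sample was left out. Adjusted over 5 pairs, it missed the threshold without non-transgenic sample 1, 2 or 7 (exact permutation, 0.0595 each), where 3 against 6 samples limit how low p can be.

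The tested genes most like Pabpn1l over the 10 samples were found by the root mean square difference between profiles, each centred on its own non-transgenic mean. They were Zfp982 (0.52 log2 units), Ttn (0.53), Cyp20a1 (0.55), Zfp141 (0.57) and Prr32 (0.58). Zfp982 and Zfp141 are annotated as zinc finger genes, Ttn encodes the muscle protein titin, and Cyp20a1 is a member of the cytochrome P450 family. Zfp982 was the brightest of them, at 12.21 in non-transgenic and 9.92 in transgenic oocytes, with transgenic samples from 9.34 to 10.78. The differences of the other 4 were -2.44 for Ttn, -2.59 for Cyp20a1, -2.60 for Zfp141 and -2.25 for Prr32. The transgenic means of Zfp141 and Prr32, at 4.29 and 3.21, were below the filter level, and so were their highest transgenic values, 4.65 and 3.71. These 2 genes reached the filter through the non-transgenic samples alone, so they had to fall, and the sizes of their falls are uncertain.

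None of the cytoplasmic poly(A)-binding protein genes passed in limma, and 1 of these 3 genes had an unadjusted p below 0.05. That gene was Pabpc1, which encodes the main cytoplasmic poly(A)-binding protein of somatic cells. Its probe set 1418883_a_at was at 9.21, 8.57, 8.64 and 9.53 in non-transgenic samples 1, 2, 7 and 8. In transgenic samples 4, 5, 6, 11, 12 and 13 it was at 8.44, 7.91, 8.36, 8.07, 9.06 and 8.12. Of the transgenic samples, 5 were below all non-transgenic samples, and sample 12 lay among them. The means were 8.98 ± 0.46 and 8.33 ± 0.41, a difference of -0.66 (SE 0.24, 95% interval -1.20 to -0.12, limma adjusted p = 0.0547, exact permutation p = 0.0476). Its side of the threshold rested on single samples: it passed without transgenic sample 12 (-0.81, limma adjusted p = 0.0126), without non-transgenic sample 2 (-0.80, 0.0393) and without non-transgenic sample 7 (-0.77, 0.0499). The difference shrank to -0.40 (limma adjusted p = 0.326) with a measure of RNA length as a covariate, the 3′ minus 5′ difference of the Gapdh control probe sets. That measure was 4.05 ± 0.26 (SD, n = 4) without the transgene and 3.77 ± 0.18 (SD, n = 6) with it (exact permutation p = 0.114), and its part in the result was not tested further. The other Pabpc1 probe set, 1453840_at, was below the filter in all 10 samples.

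Pabpc1l encodes the embryonic poly(A)-binding protein, the cytoplasmic form of oocytes before the embryo's own genes are switched on, and is needed for oocyte maturation. Its only probe set was at 8.77, 8.93, 9.13 and 9.58 in non-transgenic samples and between 8.76 and 9.55 in transgenic samples, with a median of 9.23. The groups overlapped over nearly their whole range. The difference was 0.10 (95% interval -0.28 to 0.49, limma adjusted p = 0.685), an interval that leaves room for a change of either sign. The sign turned without non-transgenic sample 1 (-0.0079). Pabpc4, an inducible cytoplasmic form first known from activated T cells and platelets, had both of its probe sets tested. The main one, 1451296_x_at, whose suffix marks oligonucleotides that can also match other transcripts, had a mean of 11.05 ± 0.15 (SD, n = 4) without the transgene and 10.98 ± 0.16 (SD, n = 6) with it. It differed by -0.07 (interval -0.29 to 0.15, limma adjusted p = 0.627), and 1421046_a_at by -0.21 (interval -0.53 to 0.12, limma adjusted p = 0.316).

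On the within-array differences, Pabpc1l against Pabpc1 shifted by 0.76 (exact permutation p = 0.0381, adjusted over 6 pairs 0.0571 and over 5 0.0635) and Pabpc4 against Pabpc1 by 0.59 (exact permutation p = 0.0524, adjusted over 6 pairs 0.0629 and over 5 0.0655). Neither passed the threshold after adjustment, so a difference in response between these cytoplasmic forms was not shown. Without transgenic sample 12 the shifts were 0.88 and 0.69, and both passed (exact permutation, adjusted over 5 pairs 0.0397 for each). Pabpc1l against Pabpc1 also passed without transgenic sample 4 (0.87, exact permutation, adjusted over 5 pairs 0.0397). The other PABP genes on the array, Pabpc2, Pabpc5, Pabpc6 and Pabpc4l, were below the filter in all 10 samples, with a highest value of log2 4.07 over their probe sets.

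**Figure D2:**
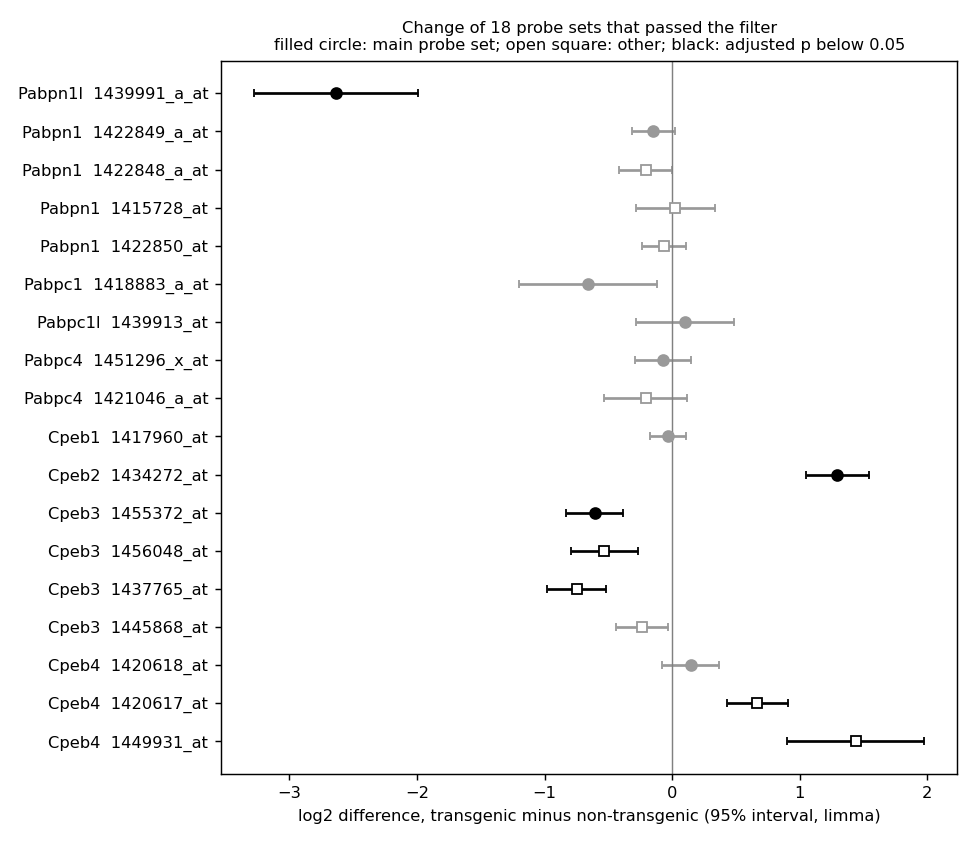
The horizontal axis gives the log2 difference, transgenic minus non-transgenic, with its 95% interval from limma for the 18 member probe sets that passed the filter. Filled circles are main probe sets, open squares the others, and black marks an adjusted p below 0.05. Pabpn1l stands apart at -2.63. The points of Cpeb3 lie below 0 and those of Cpeb4 above it, with the interval of the main Cpeb4 probe set spanning 0. Cpeb2 and 1449931_at of Cpeb4 are also black, but they reached the filter through the transgenic samples, so their rises are not read as calls.

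Among the CPEB genes, Cpeb1 mRNA did not pass and had a narrow interval around 0. Cpeb3 mRNA was lower on 3 of 4 probe sets. Cpeb4 mRNA was higher on its second brightest probe set but not on the brightest. CPEB1 is the founding member and controls stored mRNAs such as those of Mos and cyclin B. Its probe set was at 13.62, 13.33, 13.43 and 13.42 in non-transgenic samples 1, 2, 7 and 8. In transgenic samples 4, 5, 6, 11, 12 and 13 it was at 13.43, 13.39, 13.32, 13.47, 13.55 and 13.35. The transgenic samples lay inside the non-transgenic range except sample 6, which was just under its lower end. The difference was -0.03 (SE 0.06, limma adjusted p = 0.730), with a 95% interval of -0.17 to 0.11. Its sign turned without non-transgenic sample 1 (0.023).

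CPEB2, CPEB3 and CPEB4 form a second branch of the family with closely related RNA-binding domains. CPEB4 is known to take over from CPEB1 in later meiosis in frog oocytes, and CPEB3 is best known as a translational repressor at synapses. Cpeb2 was barely above the filter. Its main probe set 1434272_at was at 4.72, 4.41, 4.51 and 4.10 in non-transgenic samples, all below the level of 5, and at 5.84, 5.78, 5.68, 5.70, 5.56 and 5.83 in transgenic samples 4, 5, 6, 11, 12 and 13. Set against the filter level it was at least 1.66-fold higher in transgenic oocytes (fitted difference 1.29, given without a test since the filter required it). The 2 other Cpeb2 probe sets were below the filter in every sample of both groups, at 3.79 and 3.81 for 1443017_at and at 3.13 and 3.03 for 1458518_at in non-transgenic and transgenic means (exact permutation p = 0.852 and 0.314). The rise was thus seen on 1 of 3 probe sets and at low intensity.

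All 4 Cpeb3 probe sets passed the filter in both groups, and 3 of them fell. The main one, 1455372_at, was at 10.51, 10.54, 10.49 and 10.38 in non-transgenic samples. In transgenic samples 4, 5, 6, 11, 12 and 13 it was at 10.14, 9.997, 9.71, 9.97, 9.70 and 9.73. The groups did not overlap. The means were 10.48 ± 0.07 and 9.87 ± 0.19, a difference of -0.61 (SE 0.10, 95% interval -0.83 to -0.38), or 1.52-fold lower (limma adjusted p = 0.000811, exact permutation p = 0.00476). The probe set 1437765_at was between 8.80 and 8.87 in non-transgenic and between 7.71 and 8.25 in transgenic samples, a difference of -0.75 (limma adjusted p = 0.000297). The probe set 1456048_at differed by -0.53 without overlap (limma adjusted p = 0.00602), and missed the threshold within samples 1 to 6 (0.114) and within samples 7 to 13 (0.0779). The dimmest, 1445868_at, differed by -0.24 with overlap and did not pass (limma adjusted p = 0.0712), except after quantile normalization (-0.33, adjusted p = 0.0198). Within samples 1 to 6 alone, 2 against 3, the main probe set lost its call at -0.58 (limma adjusted p = 0.0587), and within samples 7 to 13 it was at -0.64 (limma adjusted p = 0.0180).

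Cpeb4 gave different calls on its 2 brighter probe sets, and all 3 probe sets had a positive difference. The brightest, 1420618_at, was at 11.25, 10.84, 10.98 and 11.21 in non-transgenic samples and at 10.95, 11.32, 11.23, 11.26, 11.35 and 11.18 in transgenic samples 4, 5, 6, 11, 12 and 13. These overlapped, and the difference was 0.15 (95% interval -0.08 to 0.37, limma adjusted p = 0.291). The second, 1420617_at, was at 8.08, 8.13, 8.61 and 8.29 in non-transgenic and at 8.82, 9.06, 8.99, 8.88, 8.99 and 8.94 in transgenic samples. Here every transgenic sample was above every non-transgenic sample, and the difference was 0.67 (95% interval 0.43 to 0.91, limma adjusted p = 0.000799). The intervals of these 2 probe sets of the same gene do not meet. The dimmest, 1449931_at, was above the filter in 2 of 4 non-transgenic and 6 of 6 transgenic samples. It reached the filter through the transgenic samples, so its rise is given without a test. It was at least 2.41-fold higher (fitted difference 1.44). Within samples 7 to 13 alone 1420617_at missed the threshold at 0.49 (limma adjusted p = 0.0634), and 1449931_at was at 1.22. When all 3 probe sets were averaged, the difference of Cpeb4 was 0.75, given without a test because the average takes in 1449931_at. The call of Cpeb4 thus depends on which probe set is read. Of 4036 genes with at least 2 tested probe sets, 13.5% likewise had a call on another probe set and none on the brightest. Their positions in the transcript were not used here.

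**Figure D3:**
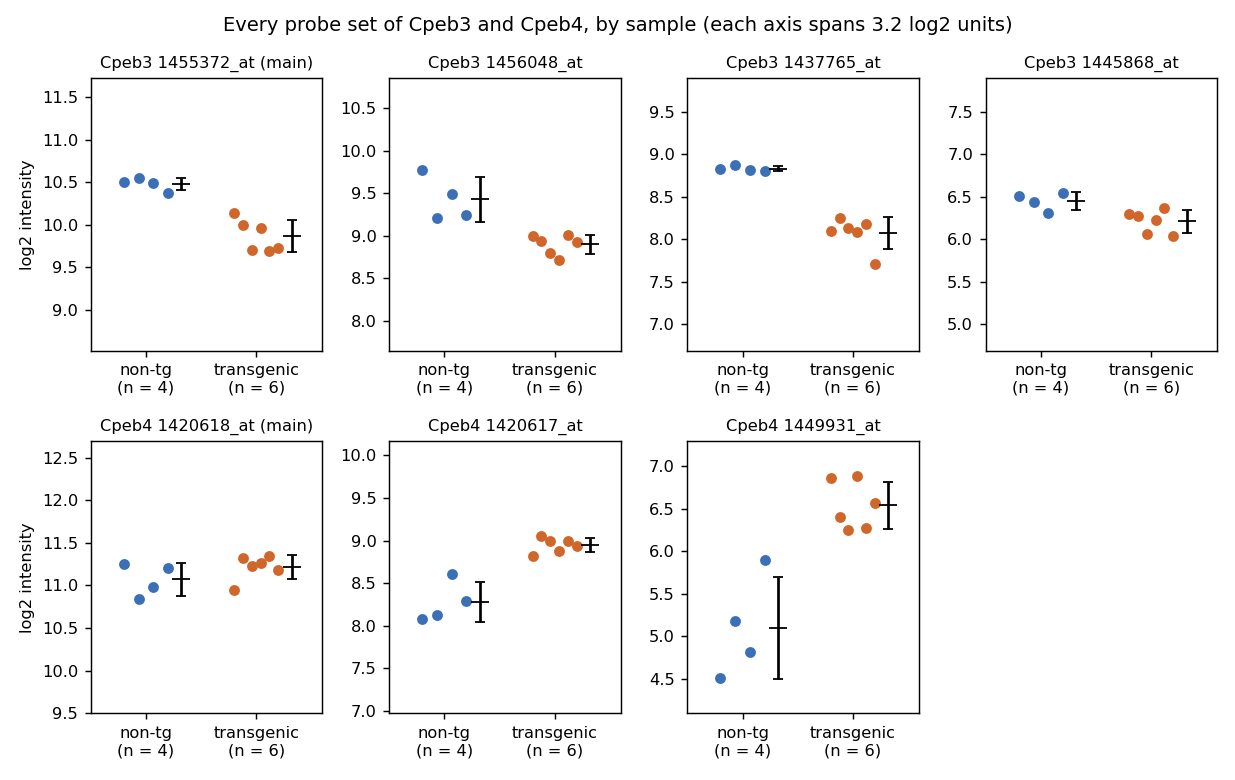
Each panel gives the log2 intensity of 1 probe set of Cpeb3 (upper row) or Cpeb4 (lower row), with 1 point a sample and the mean and SD in black. The groups are apart in the first 3 Cpeb3 panels, while for Cpeb4 they overlap on 1420618_at and are apart on 1420617_at and 1449931_at. The probe set 1449931_at reached the filter through the transgenic samples, so the gap between its groups is not read as a result.

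The changes of Cpeb1 and Cpeb3 were also compared with that of Cpeb4, on main probe sets and within arrays. Cpeb3 against Cpeb4 shifted by -0.75 (exact permutation p = 0.00952, adjusted over 6 pairs 0.0190 and over the 5 without Cpeb2 0.0238). Adjusted over 5 pairs, it passed in 3 of the 10 runs that left out 1 sample and missed the threshold at 0.0595 without non-transgenic sample 1, 2 or 7 or transgenic sample 5, 6, 11 or 13 (exact permutation), with shifts from -0.86 to -0.66 over the 10 runs. Cpeb1 against Cpeb4 shifted by -0.18 and did not pass (exact permutation p = 0.0905, also after adjustment), except without transgenic sample 4 (-0.23, exact permutation, adjusted over 5 pairs 0.0132). When the tested probe sets of each gene were averaged, Cpeb1 against Cpeb4 shifted by -0.78 and Cpeb3 against Cpeb4 by -1.28 (exact permutation, adjusted over 5 pairs 0.0079 each). Cpeb2 against Cpeb4 was also planned, but its shift of 1.15 is given without a test, since Cpeb2 had to differ.

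The enzymes that make tails were measured beside these binding proteins, from lists chosen with earlier results of these data known. The share of a list that passed is set beside the 37.2% of all tested genes, and a share near it is no result about the list. Of 11 tested poly(A) polymerases and related nucleotidyltransferases, 2 rose, 1 fell and 8 did not pass, with a median change of 0.14; 27.3% passed, under the 37.2% of all genes. Papola, the main nuclear poly(A) polymerase, rose by 0.32 on its main probe set (limma adjusted p = 0.0330), 1 of its 4 tested probe sets passing, and Tent4a, a noncanonical polymerase, by 0.23 (0.0153). Mtpap, the mitochondrial poly(A) polymerase, changed by -0.36 (0.0173). Tent2, the cytoplasmic polymerase also known as GLD2, was at 10.14 and 10.002 in non-transgenic and transgenic oocytes (0.254).

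Of 18 tested cleavage and polyadenylation factors, 1 rose, 5 fell and 12 did not pass, with a median of -0.17; 33.3% passed, near the 37.2% of all genes. Fip1l1, a subunit that holds poly(A) polymerase to the cleavage complex, changed by -0.69 (SE 0.06, limma adjusted p = 3.84e-06), from 14.43 ± 0.08 to 13.74 ± 0.09. Ppp1cb, a catalytic subunit of protein phosphatase 1, changed by -0.76 and Cpsf4l by -0.22, while Rbbp6 rose by 0.73. The other 2 that fell, Cpsf6 and Nudt21, encode partners in cleavage factor I and changed by -0.46 and -0.38. For Fip1l1 and Cpsf6 1 of 2 tested probe sets passed, and for Rbbp6 2 of 3.

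Of 25 tested partners of poly(A)-binding proteins, 2 rose, 3 fell and 20 did not pass, with a median of -0.05; 20% passed, under the 37.2% of all genes. Tob1 and Tob2, which link poly(A)-binding protein to deadenylases, rose by 0.58 and 0.34, Tob2 on 3 of 5 tested probe sets. Pan2, the catalytic subunit of a deadenylase that poly(A)-binding protein recruits, changed by -0.44, and the RNA-binding protein genes Larp4b and Larp1 by -0.60 and -0.63. Paip1 and Paip2, which promote and inhibit the action of PABPC1, were at 13.24 and 13.15 and at 13.82 and 13.80 (limma adjusted p = 0.239 and 0.768).

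Of 18 tested partners and regulators of CPEB proteins, 3 rose, 1 fell and 14 did not pass, with a median of 0.04; 22.2% passed, under the 37.2% of all genes. Msi2, a Musashi protein that binds stored mRNAs of oocytes, rose by 3.74 (SE 0.24, limma adjusted p = 6.10e-07), from 6.07 ± 0.64 to 9.81 ± 0.20, and 4 of its 5 tested probe sets passed. Zfp36l2, which binds AU-rich elements, rose by 1.92, and Lsm14b, a protein of stored mRNA particles, by 0.13. Fbxw11, a substrate receptor of a ubiquitin ligase of the kind that targets CPEB1, changed by -0.70. Aurka, the kinase linked to CPEB1 phosphorylation, was at 11.38 and 11.52 (limma adjusted p = 0.325).

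Of 26 tested mRNAs known for control by CPEB proteins or by polyadenylation in oocytes, 6 rose, 2 fell and 18 did not pass, with a median of -0.0010. Here 30.8% passed, near the 37.2% of all genes, whose median was -0.03. Tex19.1 rose by 1.32, Smad1 by 0.76 and Hprt by 0.51, while Obox5 and Orc6 changed by -0.20 and -0.28. The classical targets Mos, Plat and Ccnb2 were at 14.00, 14.94 and 10.41 in non-transgenic and at 14.16, 14.86 and 10.31 in transgenic oocytes and did not pass (limma adjusted p = 0.0855, 0.230 and 0.386). The deadenylase adaptor gene Btg4, whose translation begins at maturation, was at 14.96 and 14.91 (0.579). 

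**Figure D4:**
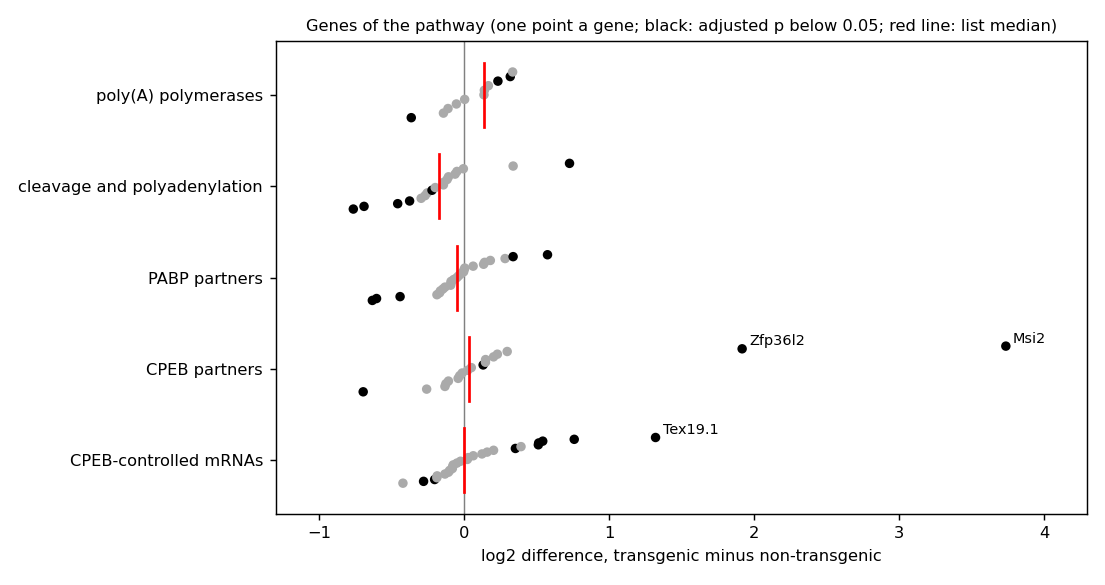
The horizontal axis gives the log2 difference, transgenic minus non-transgenic, with 1 point for each tested gene of 5 lists of the pathway, black where the adjusted p was below 0.05, and a red line at the median of the list. Most points lie near 0, with Msi2 at 3.74 farthest to the right.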

How the data were processed

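Total RNA of 10 oocyte samples was hybridised to 1 array each. The values the authors deposited are intensities, 1 for each probe set on each array, made with GCRMA per the submitters' processing notes (no version is given in the sources used here). GCRMA corrects background, normalizes arrays and summarises probes. Values were all above 0 and on a linear scale, and were taken to log2 with no new normalization. GCRMA draws dim probe sets toward a floor, so their folds are uncertain, and no detection flag comes with the values. The table held 45101 probe sets, 64 of them controls. Names came from the platform annotation (34958 probe sets with 1 gene, 932 with several), of which 34754 were found by gene number in RefSeq GRCm38.p6.

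Probe sets above log2 5 (an intensity of 32) in at least 4 arrays were tested. Groups were compared with limma 3.58.1 (lmFit, eBayes with a trend) in R 4.3.3, adjusted by Benjamini-Hochberg, threshold 0.05, once over 10590 genes (brightest probe set) and once over 18582 probe sets. Single values and 6 planned pairs of genes were compared by two-sided exact permutation tests, with the pairs adjusted also over 5 without Cpeb2, a choice made after seeing the data. For a fold given as at least a size, values below the filter were set to it. On simulated data with 200 of 10590 genes changed, the fit called 62% of 1.5-fold, 88% of 2-fold and 100% of 4-fold changes, and 6.63% of its calls were false. The 1.5-fold and 4-fold changes were all rises and the 2-fold changes all falls, with independent noise. A far smaller share of genes changed there than the 37.2% called in the data, so these rates need not hold here. The members and lists were chosen with earlier results of these data known. The text names all 9 members with every probe set, the 3 genes with the lowest adjusted p in each direction of a list, the 3 brightest genes of each marker list, Bnc1, and the 5 genes most like the member that changed most. Cpsf6, Nudt21, Tent2, Paip1, Paip2, Aurka, Mos, Plat, Ccnb2 and Btg4 lie outside this rule and were chosen after their values were seen. Also outside it are Amh, Foxl2, Inhba, Has2, Star, Col1a1, Col3a1, Pecam1, Cdh5, Ptprc and Cd68, a part of the markers below the filter. Pabpc2, Pabpc5, Pabpc6 and Pabpc4l are outside it too. Alternatives were other filters, scalings, variance models, array weights, the range of sample numbers, covariates of RNA length, other choices of probe set and each sample left out. Figures were drawn with matplotlib 3.10.9. The number of arrays limits the precision.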

Additional observations from a re-analysis of the deposited data

Results flagged for a closer look

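In 42 groups of values (21 probe sets in 2 groups), 2 held a sample far from the rest, about what chance gives at 1 in 20. On the Cpeb3 probe set 1437765_at, transgenic sample 13 was at log2 7.71, and the next transgenic sample was at 8.09. This sample lies farther from the non-transgenic group than the others do, and without any 1 sample the difference stayed between -0.78 and -0.68. On the Cpeb2 probe set 1443017_at, which is below the filter, transgenic sample 5 was at 3.99 and the next at 3.82.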

How the results depend on the processing

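No paired analysis was possible because the groups share no replicate number. The call of Pabpn1l (-2.83 to -2.50) kept direction and side in each of 26 alternatives. Cpeb2, whose call the filter fixed, ran from 0.87 to 1.40, which says nothing about stability, and gave no value at a filter of log2 7. Pabpc1 passed at a filter of log2 7 (-0.66, limma adjusted p = 0.0416) and after quantile normalization (-0.68, 0.0499), ran from -0.81 to -0.48 with single samples left out, and was smallest with the Gapdh covariate (-0.40, 0.326). That covariate also moved the uncalled Pabpn1 to -0.058, Pabpc1l to 0.33, Cpeb4 to 0.25 and 1415728_at to 0.19, and Pabpc1l was 0.35 within samples 1 to 6. Cpeb3 lost its call within samples 1 to 6 (-0.58). Cpeb4 moved to 0.75 with the mean of its probe sets, which takes in 1449931_at and is not read as a call. With single samples left out, Pabpn1 ran from -0.21 to -0.080, Pabpc1l from -0.0079 to 0.26, Cpeb1 from -0.072 to 0.023, and the Pabpn1 probe sets 1415728_at and 1422848_a_at from -0.050 to 0.081 and from -0.28 to -0.16. Uncalled values near 0 turned sign under median centring (Cpeb1 0.0049), within samples 7 to 13 (Pabpc1l -0.14, Pabpc4 0.075, Cpeb1 0.030, 1415728_at -0.087), with the beta-actin covariate (1415728_at -0.022), and, as chosen after seeing the data, without non-transgenic sample 1 and transgenic sample 6, the arrays least like their groups (Pabpc1l -0.076, Pabpc4 0.027, Cpeb1 0.043, 1415728_at -0.016). Among the pairs, the mean of probe sets moved Cpeb1 against Cpeb4 to -0.78 and Cpeb3 against Cpeb4 to -1.28. Neither is read as a call, since 1449931_at is part of the Cpeb4 mean. Pabpc1l and Pabpc1 have 1 tested probe set each, so their shift stayed 0.76, and its adjusted p passed only because those of other pairs moved. With single samples left out, Pabpc1l against Pabpc1 ran from 0.58 to 0.89 and Cpeb1 against Cpeb4 from -0.23 to -0.14. Pabpc4 against Pabpc1 ran from 0.39 to 0.71. Genes higher and lower numbered 1998 and 1942, and 1207 and 706 within samples 1 to 6 and 1241 and 1023 within samples 7 to 13, where fewer samples were used. The balance moved with scaling, to 1984 and 1452 under median centring and 1905 and 2252 after quantile normalization. For the other changes the cause was not tested. The deposited values carry no signal over background, which limits probe sets near the filter level, among them those of Cpeb2, 1422850_at of Pabpn1 and 1449931_at of Cpeb4.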
